A study of Mus musculus with 2 samples.

Results

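The caspase-8 death complex genes are 10 mouse genes that encode the death receptors Tnfrsf1a and Fas, the adaptor and enzymes that assemble on them (Fadd, Casp8, Cflar, Ripk1, Ripk3), the necroptosis executor Mlkl, and the regulators Cyld and Xiap. They were taken by name, and all 10 were found among the 52636 genes of the count matrices, with at least 1 unique molecular identifier (UMI) in each of the 2 libraries. The libraries were single-cell RNA libraries made from the intestine of 1 Casp8-mutant and 1 Mlkl-null embryo, taken at E18.5 from C57BL/6 mice. The Casp8-mutant embryo was Casp8 C362A/C362A and Mlkl -/-, and the Mlkl-null embryo was Mlkl -/- alone, so Mlkl was deleted in both. The protocol names whole intestines and the source label names the small intestine, so the gut region is not settled.

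Caspase-8 is a protease that is recruited by the adaptor FADD to death receptors and to the complex that forms after TNF receptor 1 signalling. When it is active it can start apoptosis, and it also cleaves RIPK1 and other proteins that would otherwise drive necroptosis, a lytic death in which RIPK3 phosphorylates MLKL. The protein cFLIP, encoded by Cflar, pairs with caspase-8 and sets how active it is. In the gut, loss of epithelial caspase-8 is known to cause necroptosis of epithelial cells. The alleles of these embryos allow the death complex genes to be read where caspase-8 lacks its catalytic cysteine and MLKL is absent.

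The Casp8 C362A allele changes the codon of that cysteine. The codon is shown because it is what separates the genotypes. It lies in exon 8 of 9 of 2 Casp8 transcripts with 480 codons in GENCODE M21, at chr1:58844619-58844621 (mm10, plus strand). The 63 bases around it, at chr1:58844589-58844651, are given in the reference form with the cysteine codon in capitals.
Casp8 cysteine codon: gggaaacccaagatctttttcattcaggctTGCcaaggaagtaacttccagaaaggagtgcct
The codon is 1106 or 611 bases from the transcript end in these transcripts. The libraries count tags from transcript 3′ ends, so a Casp8 UMI does not tell which allele it came from. The sources used here do not say which part of Mlkl was deleted, so Mlkl UMIs do not check the genotype either.

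There were 1014 barcodes with 2804929 UMIs in the Casp8-mutant library, against 1478 barcodes with 6290008 UMIs in the Mlkl-null library, and 2 barcode sequences occurred in both. After filtering, 873 Casp8-mutant and 1435 Mlkl-null cells remained, with medians of 1957 and 3707 UMIs. Clusters were named from marker genes, and 576 Casp8-mutant and 1184 Mlkl-null cells were epithelial-like. All 19 epithelial markers were found in at least 10% of these cells in both libraries. The epithelial-like clusters were nearly separate by library: clusters 2, 3, 7 and 9 held all 576 Casp8-mutant cells with 11 Mlkl-null cells, and clusters 0, 1, 4, 6, 8, 10 and 12 held Mlkl-null cells alone. The embryos also differed in sex, with 8271 Xist UMIs in the Casp8-mutant library and 2 in the Mlkl-null library. With 1 embryo per genotype no test was possible, no difference has a replicate check, and embryo, sex, library and genotype cannot be told apart. All intervals are 95% intervals that cover counting error only.

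Levels are UMIs per 1000000 UMIs of a cell class (CPM), and a ratio is Casp8-mutant over Mlkl-null. A gene was called higher or lower when it had at least 20 UMIs over both libraries, a ratio of at least 1.5 in that direction, and a ratio interval leaving out 1. In epithelial-like cells, 2 of the 10 genes were called higher, Ripk3 and Fas, and none was called lower. A further 7 genes were called neither way, and Mlkl stayed under the UMI minimum. The same rule called 22.5% of the 13920 genes measured in epithelial-like cells higher and 27.4% lower, so 2 of 9 is near the share of all genes. The median log2 ratio was 0.26 for the 9 measured death complex genes, beside -0.16 for all measured genes.

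Gene positions are those of GENCODE M21 on mm10. Tnfrsf1a (ENSMUSG00000030341, chromosome 6, 125349362 to 125362484, plus strand) encodes TNF receptor 1. In epithelial-like cells it had 147 UMIs in the Casp8-mutant library, or 74.0 CPM (62.5 to 87.0), against 275 UMIs, or 51.7 CPM (45.8 to 58.2), in the Mlkl-null library. The level intervals were apart, yet the ratio of 1.43 (1.16 to 1.76) was under the fold needed for a call. Fas (ENSMUSG00000024778, chromosome 19, 34290666 to 34327772, plus strand) encodes the receptor of Fas ligand. It had 23 UMIs, or 11.6 CPM (7.34 to 17.4), in Casp8-mutant cells and 24 UMIs, or 4.51 CPM (2.89 to 6.71), in Mlkl-null cells. Fas was 2.57-fold higher in Casp8-mutant cells, and with so few UMIs the interval was wide, 1.38 to 4.75.

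Fadd (ENSMUSG00000031077, chromosome 7, 144577318 to 144582463, minus strand), the adaptor that links receptors to caspase-8, had 24 UMIs, or 12.1 CPM (7.74 to 18.0), in Casp8-mutant epithelial-like cells and 93 UMIs, or 17.5 CPM (14.1 to 21.4), in Mlkl-null cells. The ratio of 0.70 (0.42 to 1.09) was not called, and its interval held 1. Over all cells Fadd had 28 UMIs, or 10.8 CPM, in the Casp8-mutant library and 104 UMIs, or 16.9 CPM, in the Mlkl-null library. There the ratio of 0.65 (0.41 to 0.98) met the rule for lower. That call was kept in 8 of 13 alternatives, and was lost, for example, with median-of-ratios scaling, where the ratio was 0.69. An antisense gene, Faddos, overlaps Fadd, and the sources used here do not say whether counting used strand. Genes on the same strand overlap Casp8 (Gm37760), Fas (Gm27818) and Ripk1 (Gm17084), and pseudogenes on the opposite strand overlap Mlkl and Cyld. How reads in such overlaps were counted is not stated either.

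Casp8 (ENSMUSG00000026029, chromosome 1, 58795374 to 58847503, plus strand), the gene that carries the mutation, had 209 UMIs, or 105 CPM (91.4 to 120), in Casp8-mutant epithelial-like cells, against 376 UMIs, or 70.7 CPM (63.7 to 78.2), in Mlkl-null cells. The 2 intervals did not overlap. The ratio of 1.49 (1.25 to 1.77) lay just under the 1.5-fold limit, and it was called higher under median-of-ratios scaling (1.56). Thinning of each cell to 2000 UMIs, which leaves out cells below that depth, gave a ratio of 1.17. That value was not called and lay outside the interval. Cflar (ENSMUSG00000026031, chromosome 1, 58711508 to 58758884, plus strand), which encodes the caspase-8 partner cFLIP, had 93 UMIs, or 46.8 CPM (37.8 to 57.3), in Casp8-mutant cells and 209 UMIs, or 39.3 CPM (34.1 to 45.0), in Mlkl-null cells. Its ratio of 1.20 (0.92 to 1.53) was not called. With at least 1000 genes per cell it was 1.57 (1.14 to 2.11) and called higher.

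Ripk3 (ENSMUSG00000022221, chromosome 14, 55784995 to 55788865, minus strand), the kinase that phosphorylates MLKL, had 121 UMIs, or 60.9 CPM (50.5 to 72.8), in Casp8-mutant epithelial-like cells and 124 UMIs, or 23.3 CPM (19.4 to 27.8), in Mlkl-null cells. It was 2.61-fold higher in Casp8-mutant cells (2.02 to 3.38), and the level intervals were apart. Ripk1 (ENSMUSG00000021408, chromosome 13, 34002363 to 34037147, plus strand), the kinase that joins RIPK3 and caspase-8 to TNF receptor 1 signalling, had 50 UMIs, or 25.2 CPM (18.7 to 33.2), in Casp8-mutant cells and 159 UMIs, or 29.9 CPM (25.4 to 34.9), in Mlkl-null cells. Its ratio of 0.85 (0.60 to 1.16) was not called. Serpinb6a overlaps Ripk1 on the opposite strand, so Ripk1 is uncertain where counting did not use strand.

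Mlkl (ENSMUSG00000012519, chromosome 8, 111311797 to 111338177, minus strand), deleted in both embryos, was near the detection limit. Epithelial-like cells held 11 Mlkl UMIs in the Casp8-mutant library, or 5.54 CPM (2.76 to 9.91), and 1 in the Mlkl-null library, or 0.19 CPM (0.0048 to 1.05). Over all cells there were 13 and 1 Mlkl UMIs in the Casp8-mutant and Mlkl-null libraries, a ratio of 21.4 with an interval of 4.63 to 1311. So a low Mlkl signal was counted mainly in the Casp8-mutant library, from an allele whose remaining transcript the sources used here do not describe.

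The regulators were called neither way. Cyld (ENSMUSG00000036712, chromosome 8, 88697028 to 88751945, plus strand), a deubiquitinase that acts on the RIPK1 complex, had 27 UMIs, or 13.6 CPM, in Casp8-mutant epithelial-like cells and 79 UMIs, or 14.8 CPM, in Mlkl-null cells, a ratio of 0.93 (0.57 to 1.43). Xiap (ENSMUSG00000025860, chromosome X, 42059679 to 42109656, plus strand), an inhibitor of caspases, had 81 UMIs, or 40.8 CPM (32.4 to 50.7), in Casp8-mutant cells and 290 UMIs, or 54.5 CPM (48.4 to 61.1), in Mlkl-null cells. The Xiap ratio of 0.75 (0.58 to 0.96) left out 1 but was too small for a call. Xiap is X-linked and the embryos differed in sex, so sex and genotype cannot be told apart for it.

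**Figure D1:**
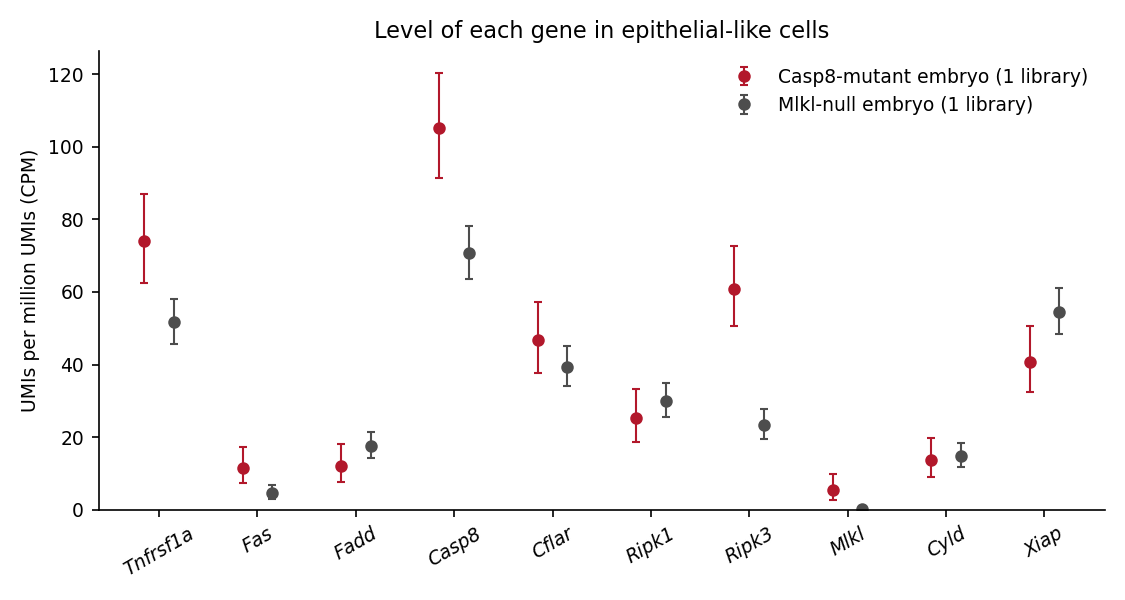
Level of each death complex gene in epithelial-like cells, in CPM, with the Casp8-mutant library left of the Mlkl-null library; points are 1 library each and bars are 95% intervals of counting error. The bars are apart for Ripk3, Casp8, Tnfrsf1a, Fas and Mlkl.

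Over all cells the ratios were close to those of epithelial-like cells, which made up 66.0% of Casp8-mutant and 82.5% of Mlkl-null cells. Ripk3 and Fas were called higher and Fadd lower, beside 22.3% of 15326 genes called higher and 26.7% called lower. Ripk3 had 140 UMIs in Casp8-mutant cells and 138 in Mlkl-null cells, a ratio of 2.41 (1.89 to 3.07). Fas had 34 UMIs in Casp8-mutant cells and 31 in Mlkl-null cells, a ratio of 2.60 (1.55 to 4.38). Raw UMI numbers that are nearly equal thus gave ratios above 2 because the Casp8-mutant cells held 2601326 UMIs, against 6172180 in the Mlkl-null cells.

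**Figure D2:**
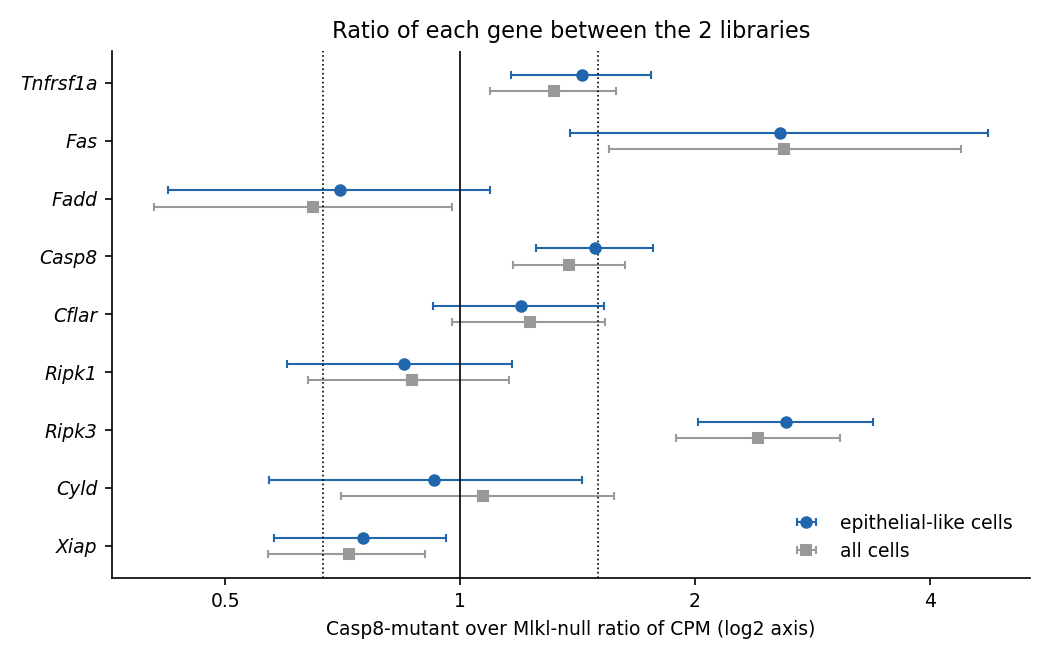
Ratio of CPM, Casp8-mutant over Mlkl-null, on a log2 axis, for the 9 genes with at least 20 UMIs over both libraries; circles are epithelial-like cells, squares all cells, bars 95% intervals of counting error, and dotted lines the 1.5-fold limits. Ripk3 (2.61) and Fas (2.57) lie beyond the limit in epithelial-like cells, and Casp8 (1.49) and Tnfrsf1a (1.43) lie just inside it.

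The level of these genes was not even across the epithelium. The 4 Casp8-mutant clusters of at least 50 cells were led by Reg3b and Reg3g (cluster 2), by Isg15 and Sprr2a3 (cluster 3), by Gm26917, Reg3b and the small nuclear RNA gene Rn7sk (cluster 7) and by the goblet cell genes Tff3 and Zg16 (cluster 9). Casp8 was at 71.5 CPM (55.6 to 90.4) in cluster 2 and 87.2 CPM (59.6 to 123) in cluster 9. It was at 165 CPM (121 to 219) in cluster 3 and 165 CPM (127 to 213) in cluster 7. The higher Casp8 level therefore sat in clusters 3 and 7, which were also shallow, with medians of 1625 and 1845 UMIs per cell, beside 4604 in cluster 2. Tnfrsf1a followed the same order, at 45.6 CPM in cluster 2, 62.6 in cluster 9, 94.5 in cluster 3 and 144 in cluster 7.

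Ripk3 had another pattern. It was at 43.6 CPM (24.9 to 70.8) in cluster 9, 49.0 (26.8 to 82.3) in cluster 3, 53.8 (40.2 to 70.6) in cluster 2 and 106 (75.2 to 145) in cluster 7. In the Mlkl-null library its level over 7 clusters ran from 15.4 CPM in cluster 1 to 33.2 CPM in cluster 6. As point values, every Casp8-mutant cluster was thus above every Mlkl-null cluster for Ripk3, but the intervals were not all apart. Those of Mlkl-null cluster 6 (22.7 to 46.8) and cluster 10 (33.1 CPM, 19.9 to 51.7) overlapped those of Casp8-mutant clusters 9, 3 and 2. So did that of Mlkl-null cluster 4 (24.1 CPM, 11.5 to 44.3). Those of Mlkl-null clusters 0, 8 and 12 overlapped those of Casp8-mutant clusters 9 and 3 but not 2. That of Mlkl-null cluster 1 (9.15 to 24.4) overlapped no Casp8-mutant interval. The interval of cluster 7 was above those of all 7 Mlkl-null clusters. For Casp8 the ranges overlapped, with 45.6 to 92.1 CPM over the Mlkl-null clusters. The clusters came from 2 libraries and are not replicates.

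**Figure D3:**
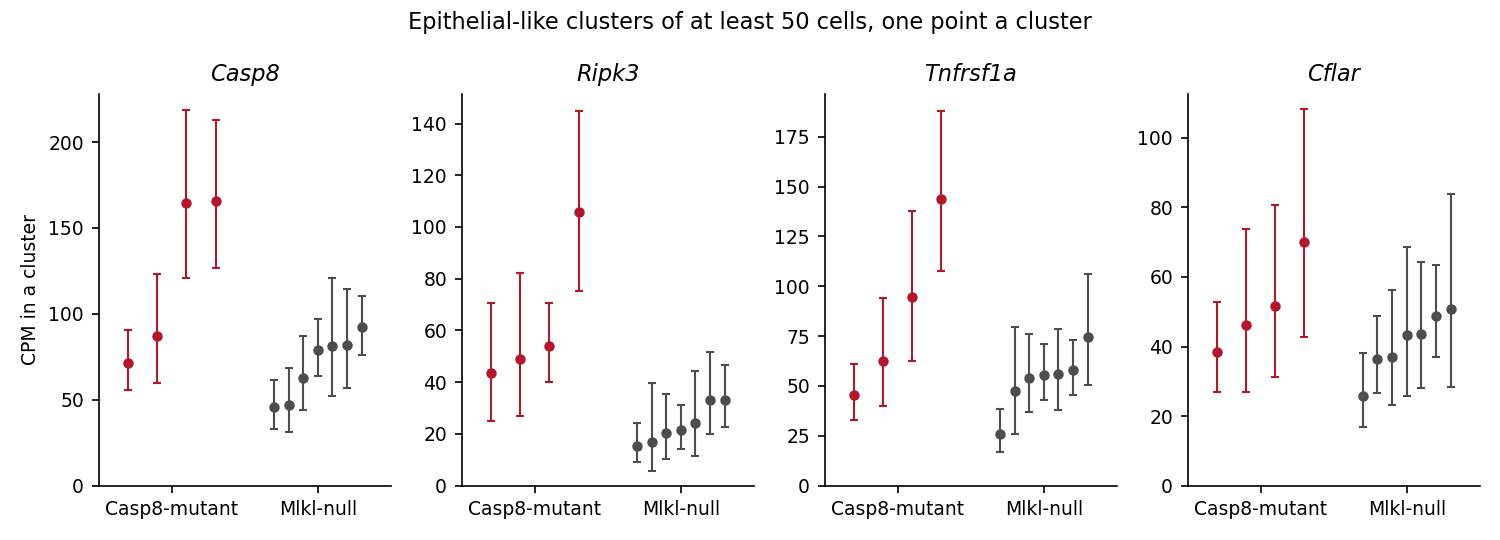
CPM of Casp8, Ripk3, Tnfrsf1a and Cflar in each epithelial-like cluster of at least 50 cells, 4 clusters in the Casp8-mutant library and 7 in the Mlkl-null library, ordered by level, with 95% intervals of counting error. The Ripk3 points of the libraries do not overlap (lowest 43.6 CPM in Casp8-mutant, highest 33.2 CPM in Mlkl-null), whereas those of the other genes do. Some Ripk3 bars of the 2 libraries overlap.

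Clusters 7 and 4 shared 5 of their 10 leading genes, and clusters 9 and 12 shared 7. The leading genes of clusters 7 and 4 both held Rn7sk and Gm26917, and those of clusters 9 and 12 both held the goblet cell genes Tff3 and Muc2. These pairs were chosen after the data were seen. Between cluster 7 (121 Casp8-mutant cells) and cluster 4 (152 Mlkl-null cells), Ripk3 had 39 UMIs in cluster 7 and 10 in cluster 4, and was 4.24-fold higher (2.15 to 9.87) in the Casp8-mutant cells. Casp8 was 2.01-fold (1.31 to 3.17) and Tnfrsf1a 1.91-fold (1.21 to 3.10) higher there. Of the 10 death complex genes, 6 were measured in this pair, of which these 3 were called higher, beside 25.1% of all genes measured, and none lower, beside 23.3%. In the goblet-led pair, of 102 Casp8-mutant and 81 Mlkl-null cells, 6 of the 10 were measured. Casp8 was 1.84-fold higher (1.08 to 3.18) and the sole one of the 6 called, beside 9.02% of all genes called higher and 26.8% called lower. Ripk3 was at 2.13-fold there, with an interval of 0.96 to 4.99 that held 1. Without the clusters led by Rn7sk, the epithelial-like ratio was 2.18 for Ripk3 and 1.31 for Casp8.

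The share of cells with a UMI gave another view, one that depends on depth. At full depth a Ripk3 UMI was found in 101 of 576 Casp8-mutant epithelial-like cells, or 17.5% (14.5 to 20.9), and in 111 of 1184 Mlkl-null cells, or 9.38% (7.78 to 11.2). Erythroid-like cells, which show how often free RNA gives a UMI, held Ripk3 in 0 of 25 Casp8-mutant and 0 of 19 Mlkl-null cells, which allows shares of up to 12.0% and 15.8%. Median depths were 1574 and 3096 UMIs in these erythroid-like cells, beside 2515 and 3902 UMIs in the epithelial cells of these libraries, Casp8-mutant and Mlkl-null in turn. After thinning to 2000 UMIs, which left out 232 and 130 epithelial-like cells, Ripk3 was in 11.0% (7.94 to 14.8) of Casp8-mutant and 4.17% (3.05 to 5.56) of Mlkl-null cells. At equal depth the Casp8-mutant share was the larger and the intervals were apart. The erythroid-like limits, from few cells, lay above both thinned shares, but they are from full depth. At full depth the Casp8-mutant share of 17.5% lay above its limit of 12.0%, and the Mlkl-null share of 9.38% below its limit of 15.8%. The erythroid-like cells were the shallower ones, and the part of free RNA in the Ripk3 shares was not tested.

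For Casp8 the shares were closer at that depth. A Casp8 UMI was found in 28.5% (24.8 to 32.3) of Casp8-mutant and 26.8% (24.3 to 29.4) of Mlkl-null epithelial-like cells at full depth. Thinned to 2000 UMIs the shares were 17.2% (13.3 to 21.6) in Casp8-mutant and 14.9% (12.8 to 17.2) in Mlkl-null cells. Thinned to 1000 UMIs, which keeps the shallow cells, they were 13.96% (11.2 to 17.1) and 6.93% (5.55 to 8.52) in the Casp8-mutant and Mlkl-null libraries. The Casp8 intervals were thus apart at 1000 UMIs and overlapped at 2000 UMIs. Of the erythroid-like cells, 3 of 25 Casp8-mutant and 0 of 19 Mlkl-null cells held a Casp8 UMI, or 12.0% (2.55 to 31.2) and up to 15.8%. These erythroid-like shares are from full depth and from few, shallower cells. The Casp8-mutant interval overlapped that of epithelial-like cells at full depth, while the Mlkl-null limit lay below the full-depth epithelial-like interval. The part of free RNA in the Casp8 shares was not tested.

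Most cells held few of these transcripts. At full depth 31.4% of Casp8-mutant and 29.7% of Mlkl-null epithelial-like cells held a UMI of none of the 10 genes, and the median cell held 1. A UMI of both Casp8 and Ripk3 was found in 38 Casp8-mutant cells, or 6.60% (4.71 to 8.94), and in 40 Mlkl-null cells, or 3.38% (2.42 to 4.57). Thinned to 2000 UMIs, these shares were 2.62% (1.20 to 4.91) in Casp8-mutant and 0.85% (0.39 to 1.61) in Mlkl-null cells, whose intervals overlap.

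Transcripts of other cell types also differed between the libraries within the epithelial-like class. The summed level of 13 granulocyte markers was 3421 CPM in Casp8-mutant and 33.6 CPM in Mlkl-null epithelial-like cells, with 7 and 0 of them found in at least 10% of cells and 0 and 4 of them at 0. The 9 erythroid markers summed to 10560 CPM in Casp8-mutant and 3055 CPM in Mlkl-null cells, with none at 0. The 13 myeloid markers summed to 669 CPM and 340 CPM in Casp8-mutant and Mlkl-null cells, with none at 0. The 13 pancreatic acinar markers summed to 1592 CPM in Casp8-mutant and 742 CPM in Mlkl-null cells, with 4 and 1 of them at 0. Of these 13, 3 in Casp8-mutant and 6 in Mlkl-null were found in at least 10% of cells. That list holds Zg16, a leading gene of the epithelial-like cluster 9, so its sum is not of another cell type alone. The 14 enteroendocrine markers summed to 2680 CPM in Casp8-mutant and 1385 CPM in Mlkl-null cells, with none at 0. Other lists were lower in the Casp8-mutant cells: the 8 smooth muscle markers summed to 109 CPM in Casp8-mutant and 301 CPM in Mlkl-null cells, and the 7 enteric glia markers to 33.2 CPM and 73.3 CPM. The enteric neuron list (18.6 CPM in Casp8-mutant and 35.7 CPM in Mlkl-null cells) and the mesothelial list (12.1 CPM and 22.9 CPM) were lower too. The fibroblast, endothelial, lymphoid, mast and interstitial cell of Cajal lists were within 1.5-fold. The 19 epithelial markers themselves summed to 36273 CPM in Casp8-mutant and 53146 CPM in Mlkl-null cells. The part of these transcripts in the levels of the death complex genes, and of the pathway genes given below, was not tested. In granulocyte-like cells, found in the Casp8-mutant library alone, the granulocyte markers summed to 58515 CPM and Ripk3 stood at 111 CPM (36.2 to 260) from 5 UMIs.

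Set against all other cells of the same library, Casp8 was called higher in epithelial-like cells in both genotypes. In the Casp8-mutant library it had 105 CPM in epithelial-like cells and 37.4 CPM in other cells, a ratio of 2.76 (1.82 to 4.53). In the Mlkl-null library it had 70.7 CPM in epithelial-like cells and 27.0 CPM in other cells, a ratio of 2.56 (1.72 to 4.18). Within the Casp8-mutant library Ripk3 was called higher in epithelial-like cells, at 1.93-fold (1.21 to 3.38), and within the Mlkl-null library it was not, at 1.37-fold (0.81 to 2.67). Those intervals overlap and the difference between them was not tested. In the Casp8-mutant library 16.4% of all genes were called higher and 11.9% lower in epithelial-like cells, and in the Mlkl-null library 19.5% were called higher and 16.8% lower. No other death complex gene was called in either library.

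Across the marker-defined classes, Casp8 stood highest in epithelial-like cells in each library. In the Casp8-mutant library it was at 105 CPM there, then 74.4 in erythroid-like cells (3 UMIs), 58.2 in myeloid-like cells, 44.6 in granulocyte-like cells (2 UMIs), 44.5 in enteroendocrine-like cells (3 UMIs) and 19.1 in fibroblast-like cells (3 UMIs), with 0 UMIs in lymphoid-like cells. The epithelial-like interval was clear of that of fibroblast-like cells (3.93 to 55.8) and above the limit of 38.8 CPM that 3 counts give in lymphoid-like cells, and overlapped the rest. In the Mlkl-null library Casp8 was at 70.7 CPM in epithelial-like, 64.9 in myeloid-like, 17.3 in enteroendocrine-like (3 UMIs) and 17.1 in fibroblast-like cells (4 UMIs), with 0 UMIs in erythroid-like and enteric neuron-like cells. Single UMIs gave 35.8 CPM in smooth muscle-like, 32.7 in lymphoid-like and 20.8 in enteric glia-like cells. In this library the epithelial-like interval was clear of those of enteroendocrine-like, fibroblast-like and erythroid-like cells, and overlapped that of myeloid-like cells.

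Tnfrsf1a had another order, with granulocyte-like or myeloid-like cells at the top. In the Casp8-mutant library it was at 156 CPM (62.7 to 322) in granulocyte-like, 79.4 (44.4 to 131) in myeloid-like, 74.0 in epithelial-like, 64.6 (21.0 to 151) in lymphoid-like and 38.2 (up to 83.0) in fibroblast-like cells, and neighbours in that order overlapped. A single UMI gave 14.8 CPM in enteroendocrine-like cells, and erythroid-like cells held none. In the Mlkl-null library it was at 124 CPM (78.8 to 187) in myeloid-like and 81.4 (49.0 to 127) in fibroblast-like cells, against 51.7 (45.8 to 58.2) in epithelial-like cells. Mlkl-null enteroendocrine-like cells stood at 34.6 CPM (6 UMIs). Enteric glia-like and erythroid-like cells of that library held 1 UMI each, and enteric neuron-like and lymphoid-like cells held none. The myeloid-like interval there was clear of the epithelial-like one. Ripk3 reached 47.6 CPM (21.8 to 90.4) in Casp8-mutant and 27.0 CPM (8.78 to 63.1) in Mlkl-null myeloid-like cells. Its fibroblast-like levels were 6.36 CPM (1 UMI) in Casp8-mutant and 21.4 CPM (5 UMIs) in Mlkl-null cells.

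**Figure D4:**
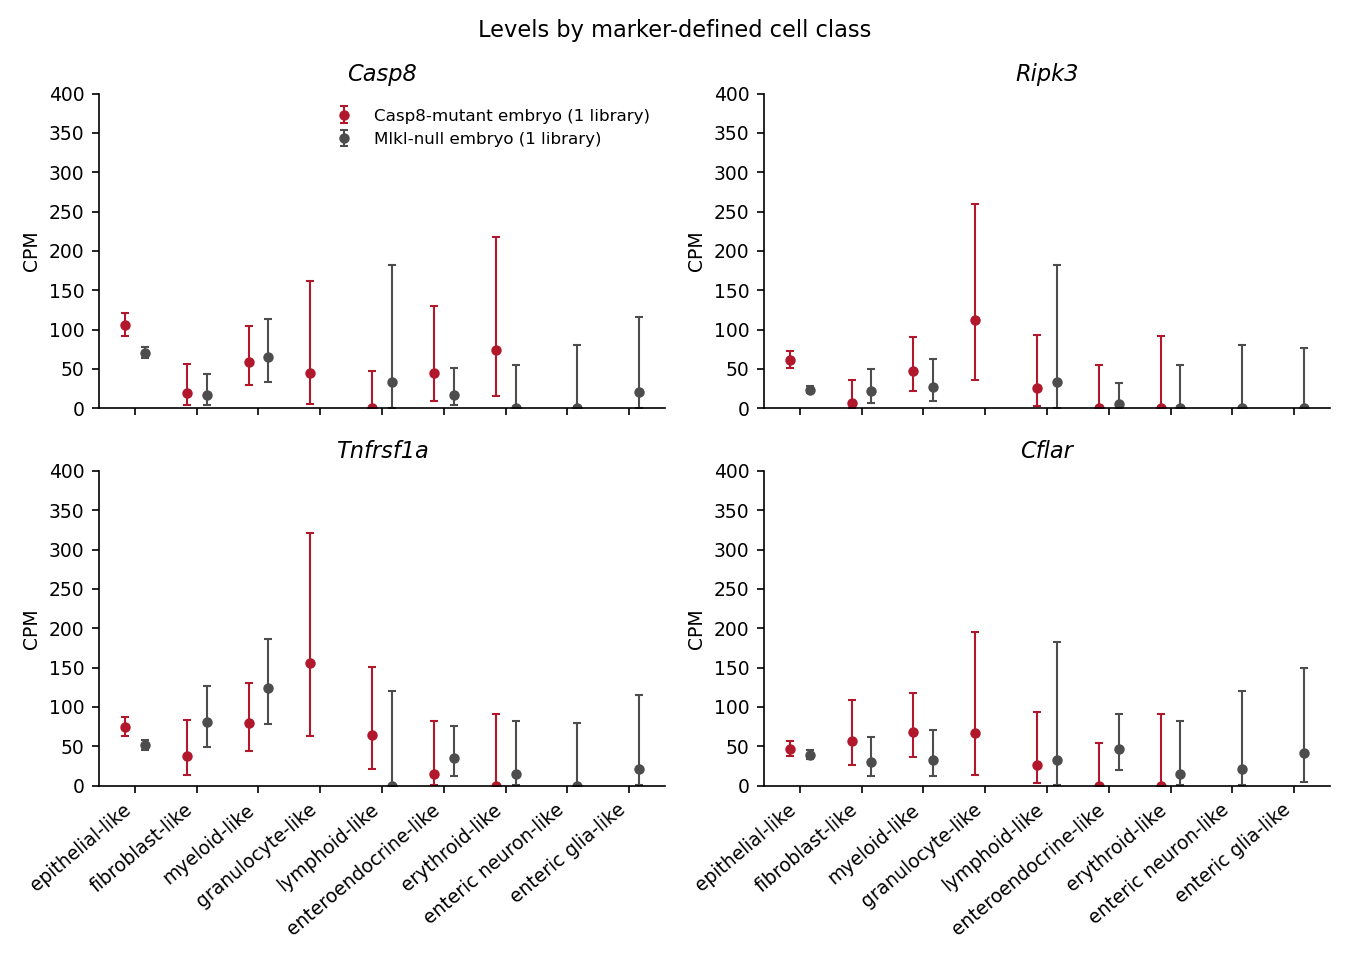
CPM of Casp8, Ripk3, Tnfrsf1a and Cflar by marker-defined class, Casp8-mutant left of Mlkl-null, with 95% intervals of counting error, for classes with at least 10 cells in a library other than smooth muscle-like cells. Casp8 is at 105 CPM in Casp8-mutant and 70.7 CPM in Mlkl-null epithelial-like cells, and most other classes have wide bars from few UMIs.

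Outside the epithelium the UMIs were too few for most comparisons between genotypes. The myeloid-like class had 108 Casp8-mutant and 61 Mlkl-null cells, mostly from cluster S0 (93 Casp8-mutant cells) and cluster S2 (53 Mlkl-null cells), and 2 of the 10 genes reached the UMI minimum. Casp8 had 11 UMIs in Casp8-mutant and 12 in Mlkl-null myeloid-like cells, a ratio of 0.90 (0.36 to 2.22). Tnfrsf1a had 15 UMIs in Casp8-mutant and 23 in Mlkl-null myeloid-like cells, a ratio of 0.65 (0.31 to 1.28). Neither was called, beside 17.2% of all genes called higher and 12.6% called lower in this class. The 13 myeloid markers summed to 14373 CPM in Casp8-mutant and 33292 CPM in Mlkl-null myeloid-like cells, and the 13 granulocyte markers to 4042 CPM and 32.4 CPM, with 1 and 11 of them at 0; their part was not tested.

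In fibroblast-like cells, 57 Casp8-mutant and 53 Mlkl-null, Tnfrsf1a and Xiap were the genes with enough UMIs. Tnfrsf1a had 6 UMIs in Casp8-mutant and 19 in Mlkl-null cells, a ratio of 0.49 (0.15 to 1.22). Xiap had 8 UMIs in Casp8-mutant and 13 in Mlkl-null cells, a ratio of 0.93 (0.33 to 2.38). Neither was called, beside 14.2% of all genes called higher and 16.4% called lower. One fibroblast-like cluster, with 25 Casp8-mutant and 9 Mlkl-null cells, was led by Crip1 and Crip2, and 5 of 6 mesothelial markers were found in at least 10% of fibroblast-like cells of each library, at 941 CPM summed in Casp8-mutant and 805.5 CPM in Mlkl-null cells. Granulocyte markers summed to 3103 CPM in Casp8-mutant and 25.7 CPM in Mlkl-null fibroblast-like cells, with 1 and 10 of 13 at 0, and their part was not tested.

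The wider pathway was described with 52 other genes of death receptor and TNF receptor 1 signalling. In epithelial-like cells 48 were measured, of which 13 were called higher, 7 lower and 28 neither, beside 22.5% of all genes called higher and 27.4% lower. The median log2 ratio of the 48 was -0.08, beside -0.16 for all genes measured. The share called higher was near that of all genes, and the share called lower was below it.

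Of 12 receptors, ligands and sensors, 8 were measured, of which 5 were called higher, 1 lower and 2 neither way (median log2 ratio 2.01). Zbp1, a nucleic acid sensor that binds RIPK3, had 306 UMIs, or 154 CPM, in Casp8-mutant and 13 UMIs, or 2.44 CPM, in Mlkl-null cells, a ratio of 60.8 (36.3 to 120). Zbp1 was at 196 CPM in Casp8-mutant and 135 CPM in Mlkl-null myeloid-like cells. In fibroblast-like cells it was at 229 CPM (36 UMIs) in Casp8-mutant and 4.28 CPM (1 UMI) in Mlkl-null cells. Casp8-mutant lymphoid-like cells stood at 129 CPM (10 UMIs) and granulocyte-like cells at 111 CPM (5 UMIs). Lower Casp8-mutant levels were 59.4 CPM in enteroendocrine-like (4 UMIs) and 24.8 CPM in erythroid-like cells (1 UMI). The Zbp1 difference was thus not particular to epithelial-like cells. In fibroblast-like cells the intervals were apart, at 160 to 317 CPM in Casp8-mutant and 0.11 to 23.9 CPM in Mlkl-null cells. The myeloid-like levels differed less. The ligand gene Tnf had 19 UMIs in Casp8-mutant and 7 in Mlkl-null cells, a ratio of 6.96 (2.93 to 20.5). Tnfrsf1b, encoding TNF receptor 2, was 8.27-fold higher (4.23 to 18.6), Tnfsf10, encoding the ligand TRAIL, 5.11-fold (3.18 to 8.54), and Tnfrsf12a, encoding the TWEAK receptor, 3.19-fold (2.31 to 4.42). Granulocyte and myeloid marker transcripts were also higher in the Casp8-mutant epithelial-like cells, and their part in these ratios was not tested. Ticam1, the adaptor of TLR3, was lower, at 0.65 (0.40 to 0.98). Fasl, the gene of Fas ligand, named here after its values were seen, had 0 UMIs in epithelial-like cells of both libraries, which at the limit of 3 counts allows up to 1.51 CPM in Casp8-mutant and 0.56 CPM in Mlkl-null cells.

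Among 23 genes of the TNF receptor 1 complex, its ubiquitin enzymes and kinases, 6 were called higher, 3 lower and 14 neither way (median log2 ratio -0.07). Ikbkb, a catalytic kinase of the IKK complex, was 3.81-fold higher (3.03 to 4.81), with 93.1 CPM in Casp8-mutant and 24.4 CPM in Mlkl-null cells. Tnfaip3, which encodes the ubiquitin-editing inhibitor A20, was 2.23-fold higher (1.68 to 2.95), Birc3, which encodes the ligase cIAP2, 2.24-fold (1.48 to 3.37), and N4bp1, an inhibitor of NF-kB that caspase-8 can cleave, 1.67-fold (1.24 to 2.22). The other kinase subunit gene Chuk was lower at 0.55 (0.39 to 0.75), as were Map3k7, encoding TAK1, at 0.42 (0.21 to 0.73) and the ligase gene Itch at 0.39 (0.22 to 0.62).

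Of 17 genes of apoptosis executors and the mitochondrial pathway, 2 were called higher, 3 lower and 12 neither way (median log2 ratio -0.26). Casp6, an executioner caspase, had 38 UMIs in Casp8-mutant and 442 in Mlkl-null cells, a ratio of 0.23 (0.16 to 0.32). Apaf1, the apoptosome scaffold, was at 0.51 (0.36 to 0.70) and Pmaip1, which encodes the BH3-only protein NOXA, at 0.55 (0.46 to 0.65). Cycs, encoding cytochrome c, was 1.93-fold higher (1.52 to 2.43). The caspase-8 substrate gene Bid, at 0.54 (0.22 to 1.06), was called neither way.

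**Figure D5:**
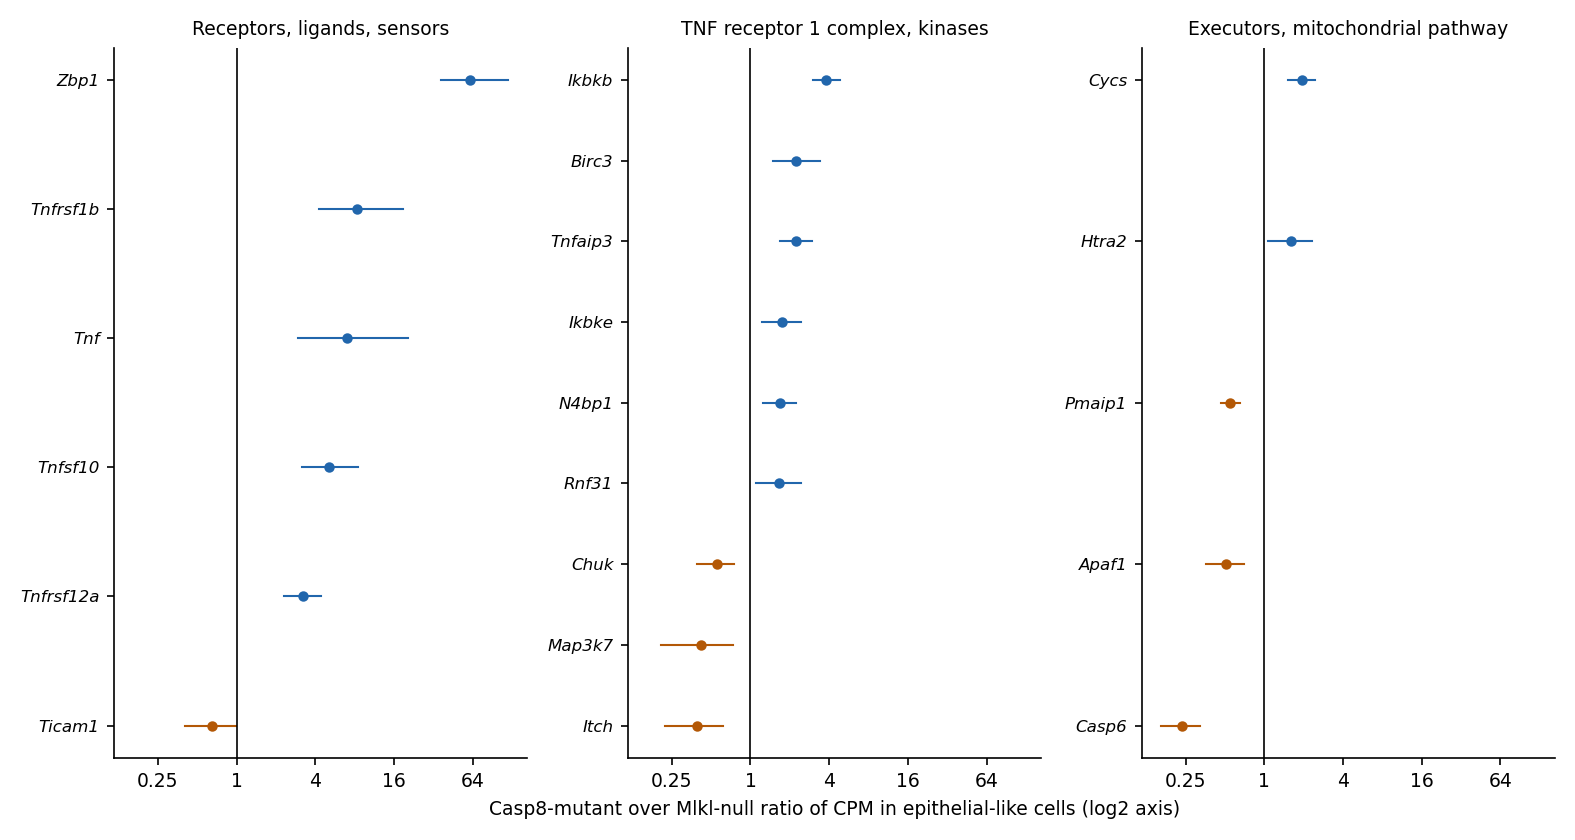
Ratio of CPM in epithelial-like cells, Casp8-mutant over Mlkl-null, on a log2 axis, for the pathway genes called higher (13, blue) or lower (7, orange), in 3 groups; bars are 95% intervals of counting error. The receptor, ligand and sensor group spans the widest range, up to 60.8 for Zbp1.

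The genes most like Casp8 and Ripk3 in pattern were sought over 12 profiles, each the summed UMIs of 1 class with at least 20 cells in 1 library, among 6093 genes with at least 200 UMIs. On log2 CPM, Tmem33 (Pearson r 0.86) and Srxn1 (0.82) were among the nearest to Casp8. Rab11fip1 (0.92), Rbm45 (0.91) and Ak6 (0.89) were nearest to Ripk3. The profiles share libraries and differ in depth, so these values are descriptions alone.

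The upstream sequences of the 2 genes called higher in epithelial-like cells are shown so that the motif search can be read against its letters. They are the 250 bases before the RefSeq start site in GRCm38.p6, 5′ to 3′, with a match to the GAS motif in capitals.
Ripk3: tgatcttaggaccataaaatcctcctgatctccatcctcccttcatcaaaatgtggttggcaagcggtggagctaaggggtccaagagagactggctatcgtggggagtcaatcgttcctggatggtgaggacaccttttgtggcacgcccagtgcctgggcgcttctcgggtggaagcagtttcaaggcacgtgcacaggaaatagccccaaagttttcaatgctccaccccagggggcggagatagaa
Fas: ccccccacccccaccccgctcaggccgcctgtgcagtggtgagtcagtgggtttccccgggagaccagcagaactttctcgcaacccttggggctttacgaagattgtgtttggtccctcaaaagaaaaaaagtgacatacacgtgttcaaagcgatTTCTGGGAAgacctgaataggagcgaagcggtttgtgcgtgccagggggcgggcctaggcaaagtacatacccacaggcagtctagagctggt
The Ripk3 sequence is chr14:55788858-55789107 on the minus strand and the Fas sequence chr19:34290409-34290658 on the plus strand. Both strands of 300-base windows, with 50 bases past the start site, were searched for 2 interferon motifs, ISRE (GAAA, any 2 bases, GAAA) and GAS (TTCNNNGAA), and for the NF-kB motif. The motifs were found in 3.44%, 8.30% and 8.46% of 32851 promoters, for ISRE, GAS and NF-kB in that order. Fas held 1 GAS match, at -93 from the start site, and Ripk3 held none of the 3 motifs. Casp8, Mlkl and Fadd held none either. Tnfrsf1a held 1 GAS match at -244, Cyld 1 NF-kB match at -155 and Cflar 1 ISRE match 6 bases past the start site. Ripk1 held 1 ISRE and 2 GAS matches at the second of its 2 start sites, where the ISRE and a GAS match overlap, and Xiap held 1 NF-kB match at 1 of its 3. A match is a run of letters and does not show that a factor binds.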

How the data were processed

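The authors' deposited files hold raw counts of UMIs per gene and barcode from 10x Chromium 3′ v2 libraries, per the labels' protocols. Cell Ranger 3.0.2, Seurat 3.0 and mm10 are listed in the submitters' processing notes without their roles, and the sources used here give no barcode filter. Symbols came from GENCODE M21 for 52403 of 52636 IDs.

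The 10 genes and all lists were chosen with earlier results of these data known. Cells with at least 500 genes and at most 20% mitochondrial UMIs were kept (139 Casp8-mutant and 39 Mlkl-null barcodes left out), and Scrublet removed 2 and 4 doublets. In scanpy 1.11.5, 2000 variable genes per library without sex-linked genes, 30 principal components, 15 neighbours and Leiden resolution 1 gave clusters, without integration, and cells not named epithelial were clustered again. A name needed 3 markers in 25% of cells, a mean marker level of 20% of the highest cluster (50% for epithelial in the second round), and no more markers of another class among the 10 leading genes. Other classes than epithelial also needed 1 marker of their own there, and erythroid cells 20% haemoglobin. This rule went through 4 forms, and the last changes were made after gene ratios and alternatives had been seen.

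UMIs were summed per class and library. Ratios had 0.5 UMI added to each sum, with conditional exact intervals, levels had exact Poisson intervals and shares Clopper-Pearson intervals. A share or level of 0 is given the limit of 3 counts. Pathway genes named were those called, at most 10 in each direction, plus Zbp1, Tnfaip3 and Bid; some genes that the rules name are not reported here. The ratio and call steps were checked on simulated counts. Depth is given with the libraries; few UMIs limit precision.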

Additional observations from a re-analysis of the deposited data

Results flagged for a closer look

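Casp8 and Tnfrsf1a had ratios on opposite sides of 1 in epithelial-like and myeloid-like cells. The Casp8-mutant over Mlkl-null ratio of Casp8 was 1.49 in epithelial-like cells and 0.90 in myeloid-like cells, where it rested on 11 and 12 UMIs. That of Tnfrsf1a was 1.43 in epithelial-like cells and 0.65 in myeloid-like cells, from 15 and 23 UMIs. Each class had 1 sample per genotype, the myeloid-like intervals (0.36 to 2.22 and 0.31 to 1.28) held 1 and overlapped the epithelial-like ones, and the difference between the classes was not tested.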

How the results depend on the processing

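Ripk3 was called higher in epithelial-like cells under all 14 alternatives (2.18 to 3.15) and over all cells under all 13 run there (2.27 to 2.71). Fas was called higher in 13 of 14, and with at least 1000 genes per cell its interval held 1 (0.84 to 5.16). Casp8 was called higher in 5 of 14 (1.17 to 1.87 over all) and Tnfrsf1a in 2 of 14 (lowest 1.11, with thinning). Cflar was called higher with at least 1000 genes per cell alone (1.57), and Mlkl without the UMI minimum alone (20.5, from 11 Casp8-mutant UMIs and 1 Mlkl-null UMI). No called ratio changed direction, and 488 of 503 ratios stayed within the interval given for the chosen settings. The 2-fold rule and the run without the UMI minimum leave every ratio unchanged by construction. Their ratios are among the 488 and say nothing about stability. Of the epithelial-like counts of higher genes, the death complex genes gave 4 with median-of-ratios scaling and 4 with the mean over cells of each cell's CPM, which used size alone. The death complex genes called lower in epithelial-like cells numbered 1 with at least 1000 genes per cell (Fadd at 0.46), 1 with cells thinned to 2000 UMIs (Xiap at 0.49) and 1 without the clusters led by Rn7sk (Fadd at 0.58). Over all cells, none (0) was lower with median-of-ratios scaling, without haemoglobin, mitochondrial and ribosomal protein genes in the total, or with the 2-fold rule, and 4 were higher with the mean over cells. That mean also gave 1 lower gene in fibroblast-like and 1 in myeloid-like cells. Pathway genes higher fell to 7 with thinning and 8 with the 2-fold rule, and those lower to 4 with at least 1000 genes per cell and 3 with the 2-fold rule. The cause was not tested, except that the 2-fold rule is stricter by construction. The median log2 ratio over the genes used for median-of-ratios scaling was -0.09 over all cells and -0.07, 0.12 and 0.07 in epithelial-like, fibroblast-like and myeloid-like cells. At resolution 0.5 the myeloid-like and fibroblast-like classes gave no value, because 1 library had fewer than 10 cells. The myeloid-like class had 0 Casp8-mutant cells, and the fibroblast-like class had 25 Casp8-mutant and 9 Mlkl-null cells. With at least 1000 genes per cell, 133 Casp8-mutant cells were named granulocyte-like, beside 21 at the chosen settings. Epithelial-like Casp8-mutant cells then numbered 244, beside 576. Cells thus changed class as well as number, and the ratios of that setting rest on differently made up classes. The earlier naming form left the epithelial-like class at 576 and 1184 cells and named 32 and 44 fibroblast-like cells. It and the run without Rn7sk-led clusters were added after the data were seen. No paired analysis was possible because each genotype had 1 embryo. Few UMIs limit Mlkl, Fas, Cyld and Fadd.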
